A study of Nothobranchius furzeri with 12 samples.

Results

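A total of 61 genes of the killifish intestine differed in level between young adult fish and old fish of both diets, by the conditions given below. Of these, 38 were higher and 23 were lower in old fish of both diets than in young adult fish. They were chosen by their measured levels, from 15106 genes with a mean of at least 1 CPM (counts scaled to a library total of 1000000) among 25475 genes in the table. For a gene to be chosen, the mean of each old group had to lie at least 1.5-fold above the mean of the young group, or each at least 1.5-fold below it. In addition, none of the 7 old libraries was allowed to overlap with any of the 4 young ones, and the means of the old groups had to lie within 1.5-fold of each other. The age differences, the similarity of the diets and the lack of overlap described here therefore follow from the choice and are given as a description. No p-value is given for a single gene, since any test in these libraries would repeat the choice.

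RNA was sequenced from intestines of wild-type male *Nothobranchius furzeri* of the strain GRZ, a vertebrate kept as a model of ageing because it lives for a few months. Fish of W20 IF (intermittent fasting) were 20 weeks old and had been offered food only every other day for 10 weeks. Fish of W20 AL (ad libitum) had the same age and continued to be fed in excess each day. W10 fish were killed at 10 weeks of age, when the diets of the older cohorts diverged, and had been fed in excess as well. All fish thus shared excess feeding until this age, and all males were housed singly after maturation had begun. As the old cohorts were killed 10 weeks later than W10, age cannot be told apart from the time of killing.

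Each group had 4 libraries. The labels name the tissue as whole intestine, whereas the methods of the study mention dissected small intestines. Cell type markers could not be looked up, because the deposited table holds Ensembl identifiers without names and 0 of them were found in the table of gene names used. The labels number the libraries of a group without naming the fish, so that the adjusted p-values counted here measure the spread between these libraries. The 11 libraries used in the choice held 23226098 to 26986542 counts, where 3 counts correspond to 0.111 to 0.129 CPM. W20 IF replicate 4 stood apart with 1512262 counts, where 1 count amounts to 0.661 CPM and 3 counts to 1.98 CPM, and it took no part in the choice. The methods of the study mention an IF sample that failed quality assessment, without naming it, and whether it is this library is not known. The group sizes given there also differ from those of the deposited table. With this library included in W20 IF, 19 rising and 13 falling genes met the same conditions, of which 19 and 11 were among those described here.

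The intestine of this fish has no stomach in front of it, and its folded epithelium consists mainly of absorptive enterocytes and mucus-secreting goblet cells, which are renewed from stem cells between the folds. Beneath the epithelium lie connective tissue, smooth muscle, nerves, vessels and immune cells, all of which contribute RNA to a library of the whole organ. A higher or lower level in such bulk RNA cannot be assigned to a cell type, and fewer cells of a type cannot be told apart from less RNA per cell. Fasting and refeeding are known to alter the expression of digestive and metabolic enzymes in the gut of many animals, while ageing is accompanied by changes of epithelial renewal and of the immune cells of the mucosa. Which of these functions the 61 genes serve is not given here, since their identifiers could not be paired with names in the sources used.

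Among all genes of at least 1 CPM, 631 had a W20 IF mean at least 1.5-fold above the W10 mean, and 444 had such a W20 AL mean. Both conditions were met by 207 genes. With the further condition that the old libraries did not overlap with W10, 90 genes were left, and 38 of these had old groups within 1.5-fold of each other. The diet condition alone thus took away 52 rising genes, and in 50 of them W20 IF lay above W20 AL. In the opposite direction, 449 genes had a W20 IF mean and 653 a W20 AL mean at least 1.5-fold below W10, and 136 met both conditions. Without overlap 24 falling genes were left, and the diet condition took away 1 of them. Before the overlap was considered, the diet condition had left 92 rising and 85 falling genes, so that 54 and 62 genes were lost because at least 1 old library reached the range of W10.

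All 7 old libraries lay above all 4 W10 libraries in 166 of the 15106 genes (1.1%), and below all of them in 147 (0.973%). By the choice these include each of the 38 rising and 23 falling genes. The W20 AL and the W20 IF differences share the same W10 libraries, so that a W10 library that is low or high by itself moves both in the same direction.

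The rising genes covered a wide range of abundance. Their mean levels ran from 1.00 to 4547 CPM with a median of 3.50 CPM, where the median over all 15106 genes was 10.4 CPM. The mean was under 5 CPM in 21 of the 38 and under 2 CPM in 14. A mean of at least 10 CPM was found for 9 rising genes and of at least 50 CPM for 5. The corresponding shares of all genes were 31.8% under 5 CPM, 13.0% under 2 CPM, 51.0% at or above 10 CPM and 15.3% at or above 50 CPM. The lowest count of a rising gene in any of the 11 libraries was 6.

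The age differences of the rising genes were mostly modest. The ratio of the W20 IF mean to the W10 mean was 1.52 at its lowest, 1.97 at the median and 4.83 at its highest. For W20 AL over W10 these ratios were 1.51, 1.95 and 4.81. On the log2 scale the medians were 0.98 for W20 IF and 0.97 for W20 AL, whereas the medians over all genes were -0.01 and -0.02. The smaller of both ratios was below 2 in 29 genes, at least 2 in 9 and at least 3 in 4.

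Within the limit set by the diet condition, the rising genes lay to both sides of an equal response to the diets. W20 IF had the higher mean in 24 of 38, against 51.7% of all genes, and the ratio of W20 IF to W20 AL ran from 0.668 to 1.45 with a median of 1.06. The old means lay within 1.1-fold of each other in 13 rising genes. All 3 W20 IF libraries were above all 4 W20 AL libraries in 1 rising gene and below them in 2. Over all genes these shares were 14.1% and 12.5%, but the diet condition had removed larger differences among the members. It took away 52 rising genes, of which W20 IF lay above W20 AL in 50 and below it in 2.

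**Figure D1:**
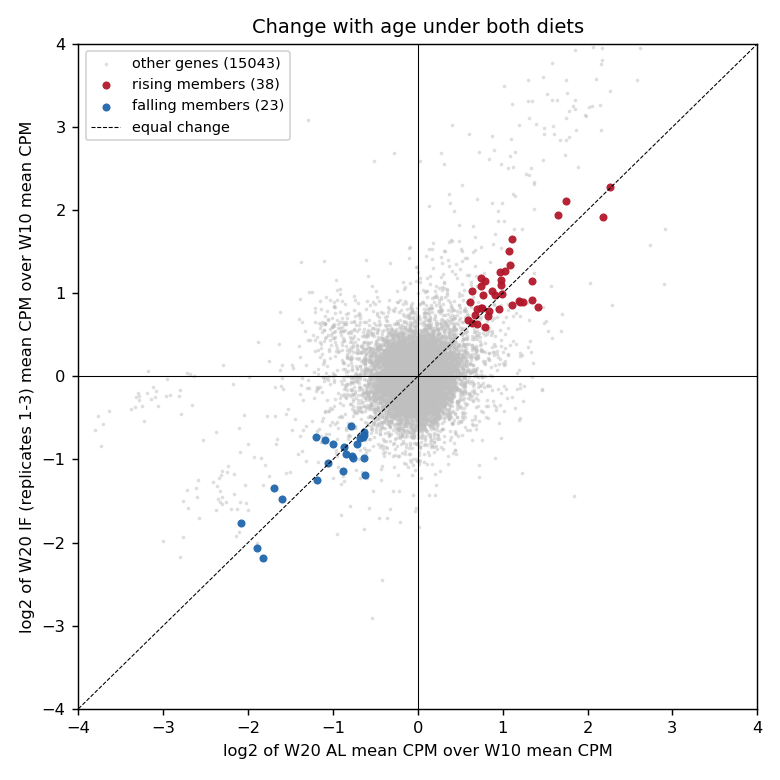
Log2 ratio of the mean CPM in W20 IF (replicates 1 to 3, vertical axis) and in W20 AL (horizontal axis) to the mean CPM in W10, for 15104 genes, with 22 genes beyond the axes at 4 and -4. The 38 rising genes (red) and 23 falling genes (blue) lie near the dashed line of equal change because the choice required it, and other genes are grey.

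Falling genes were less abundant. Their mean levels ran from 1.03 to 21.5 CPM with a median of 2.04 CPM, and 17 of 23 were under 5 CPM and 11 under 2 CPM. A mean of at least 10 CPM was reached by 1 falling gene and of at least 50 CPM by 0. The lowest count of a falling gene over the 11 libraries ran from 5 to 271 with a median of 27.

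For falling genes the ratios are given as the W10 mean over the mean of old fish. W10 over W20 IF was 1.51 at its lowest, 1.94 at the median and 4.55 at its highest, and W10 over W20 AL was 1.54, 1.82 and 4.24. As log2 of old over W10 the medians were -0.96 for W20 IF and -0.87 for W20 AL. The smaller ratio was below 2 in 16 falling genes, at least 2 in 7 and at least 3 in 3. W20 IF had the lower mean in 14 of the 23 and the higher mean in 9, where it was higher in 51.7% of all genes. The ratio of W20 IF to W20 AL ran from 0.679 to 1.39 with a median of 0.959, and 10 genes had old means within 1.1-fold. All W20 IF libraries lay above all W20 AL libraries in 1 falling gene and below them in 0. Over all genes these shares were 14.1% and 12.5%, and the diet condition had removed larger differences among the members.

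Many of the genes only just met the conditions. The separation of a gene was measured as the lowest library of the higher age over the highest library of the lower age. It was 1.007 at its lowest, 1.15 at the median and 2.09 at its highest among the rising genes, and 1.007, 1.16 and 1.97 among the falling genes. It was under 1.1 in 17 rising and 10 falling genes. The rising gene nearest to the fold condition had a smaller ratio of 1.51, and the nearest gene that failed it had 1.48. For falling genes these values were 1.51 inside and 1.49 outside. At the diet condition, the last rising gene inside had a ratio of 1.498 between the diets and the first outside had 1.53, where falling genes had 1.47 and 1.76. The closest separations were 1.007 inside and 0.999 outside for rising genes, and 1.007 and 0.969 for falling genes. At the condition of 1 CPM, rising genes had means of 1.002 CPM inside and 0.934 CPM outside, and falling genes had 1.03 and 0.706 CPM.

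The members varied more between the libraries of a group than other genes did. The standard deviation relative to the mean had medians of 20.9% in W20 IF, 16.8% in W20 AL and 20.9% in W10 among rising genes. Among falling genes the medians were 22.6%, 25.0% and 19.9%. Over all genes they were 13.5%, 10.8% and 10.5%. The share of genes of low abundance was also larger among the members, as given above, and its part in this spread was not tested.

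For each library, the log2 ratio of its level to the W10 mean was taken for every gene, with 0.1 CPM added to both. The median over the rising genes was 0.85, 0.86 and 1.013 in W20 IF replicates 1 to 3. In the W20 AL libraries it was 0.91, 0.92, 0.77 and 0.91, and in the W10 libraries 0.05, -0.05, -0.16 and 0.01. The ranges of the old libraries of both diets overlapped, which the diet condition favours. Of these libraries, W20 AL replicate 3 was the lowest and W20 IF replicate 3 the highest. Over the falling genes the medians were -1.09, -0.78 and -0.92 in W20 IF, -0.75, -0.65, -0.83 and -1.03 in W20 AL, and -0.10, 0.19, -0.07 and -0.09 in W10. Here W20 IF replicate 1 was lowest, and W10 replicate 2 stood above the other W10 libraries.

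**Figure D2:**
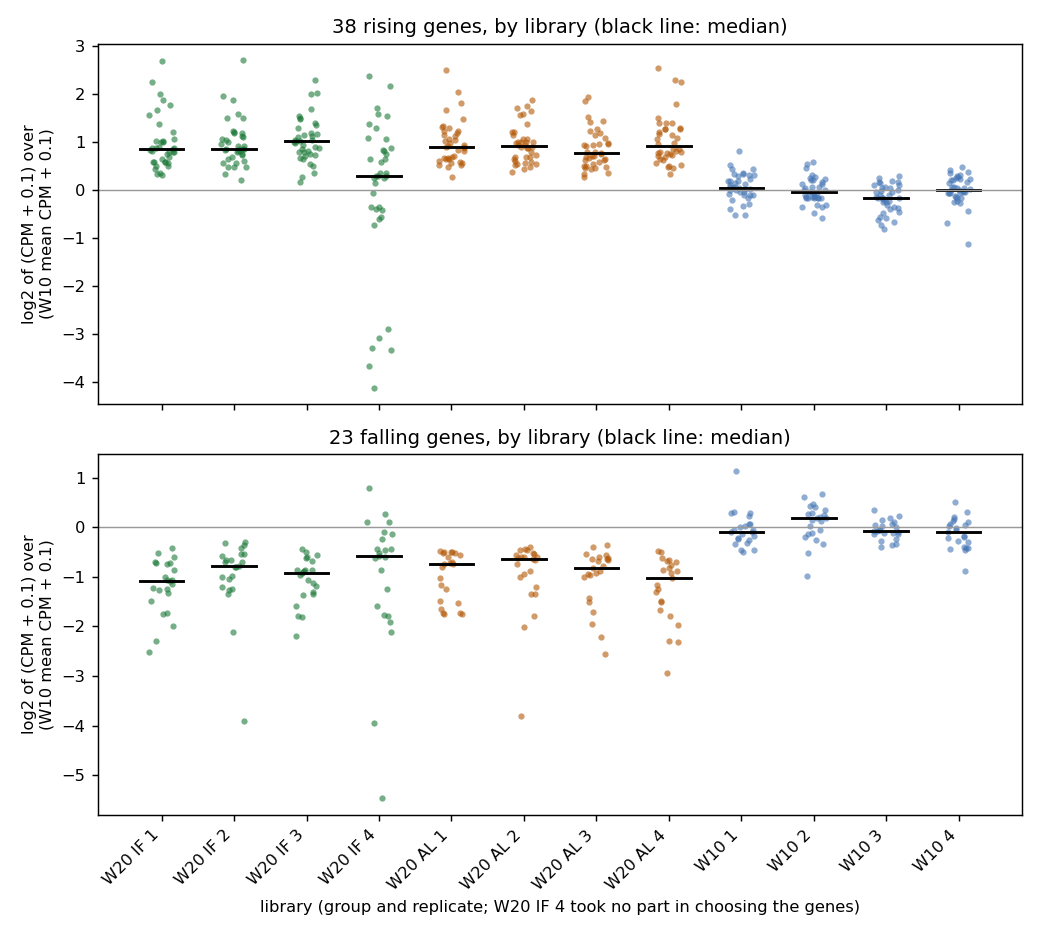
Log2 ratio of (CPM + 0.1) in a library to (mean CPM of W10 + 0.1) for each of the 38 rising genes (top) and the 23 falling genes (bottom), with 1 point per gene and the median as a black line. The medians of rising genes lie at 0.77 to 1.013 in the 7 old libraries of the choice. W20 IF replicate 4, which took no part in it, has a median of 0.30 and points far below 0 from genes with few or no counts.

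The library nearest to the other age differed between genes. Among the rising genes, the lowest old library was W20 IF replicate 1 in 8, W20 IF replicate 2 in 6 and W20 AL replicate 1 in 6, with each of the others in 4 or 5. The highest W10 library was replicate 4 in 12 and replicate 1 in 11. Among the falling genes, the highest old library was W20 IF replicate 2 in 5, W20 AL replicate 1 in 4 and each of the others in 2 or 3. The lowest W10 library was replicate 4 in 8 and replicate 1 in 7. At the far ends, W10 replicate 3 was the lowest of its group in 17 of 38 rising genes, and W10 replicate 2 the highest in 12 of 23 falling genes.

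In sum over all 38 rising genes, W20 IF replicates 1 to 3 held 5810, 6341 and 7536 CPM. W20 AL held 5069, 6415, 5890 and 5986 CPM, and W10 held 3489, 3076, 3657 and 3080 CPM. These sums are dominated by a single abundant gene described next. The 23 falling genes together held 51.7, 68.7 and 60.8 CPM in W20 IF, against 72.2, 67.1, 68.3 and 64.8 CPM in W20 AL, and 132.1, 147.4, 125.9 and 116.3 CPM in W10. That the sums of these old libraries and of the W10 libraries do not overlap follows from the choice, for rising and falling genes alike.

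Of each direction, the most abundant gene and the gene with the largest smaller ratio are described by identifier. ENSNFUG00015024882 was the most abundant rising gene, with a mean of 4547 CPM and rank 22 among all genes. It had 5178, 5632 and 6844 CPM in W20 IF, against 4318, 5710, 5201 and 5191 CPM in W20 AL, while W10 had 3100, 2779, 3408 and 2655 CPM. Every old library was above every W10 library, while the diets overlapped. W20 IF averaged 5885 ± 861 CPM (SD, n = 3), W20 AL 5105 ± 578 CPM and W10 2986 ± 338 CPM (SD, n = 4 each). In the model of 11 libraries, edgeR's log2 fold change was 0.99 for W20 IF over W10 (standard error 0.13) and 0.78 for W20 AL over W10 (standard error 0.12). For W20 IF over W20 AL it was 0.20 (standard error 0.13).

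ENSNFUG00015009396, with a mean of 11.4 CPM, had the largest smaller ratio among the rising genes. It reached 22.01, 12.5 and 13.6 CPM in W20 IF, against 19.2, 12.4, 12.3 and 19.9 CPM in W20 AL, and 5.88, 3.002, 2.93 and 1.47 CPM in W10. The lowest old library was 2.09 times the highest W10 library, the widest separation among the 38. W20 IF averaged 16.0 ± 5.20 CPM (SD, n = 3), W20 AL 16.0 ± 4.18 CPM (SD, n = 4) and W10 3.32 ± 1.85 CPM (SD, n = 4). Its log2 fold change by edgeR was 2.28 for W20 IF over W10 (standard error 0.38) and 2.29 for W20 AL over W10 (standard error 0.36). For W20 IF over W20 AL its standard error was 0.35, around a log2 fold change near 0.

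The most abundant falling gene, ENSNFUG00015019771, averaged 21.5 CPM. It had 10.5, 12.5 and 16.4 CPM in W20 IF, against 21.1, 15.5, 19.6 and 21.3 CPM in W20 AL, while W10 had 31.1, 36.4, 30.1 and 21.9 CPM. The highest W20 AL library came close to W10 replicate 4, the lowest of its group, with a separation of 1.02. On average W20 IF had 13.2 ± 2.98 CPM (SD, n = 3), W20 AL 19.4 ± 2.70 CPM and W10 29.9 ± 6.003 CPM (SD, n = 4 each). By edgeR the log2 fold change was -1.17 for W20 IF over W10 (standard error 0.19). It was -0.61 for W20 AL over W10 (standard error 0.17) and -0.56 for W20 IF over W20 AL (standard error 0.19).

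ENSNFUG00015018551 had the largest smaller ratio of the falling genes at a low level, with a mean of 1.16 CPM. It had 0.583, 0.427 and 0.561 CPM in W20 IF, against 0.585, 0.560, 0.291 and 0.923 CPM in W20 AL, and 1.82, 1.89, 2.52 and 2.56 CPM in W10. These levels rest on 15, 11 and 14 counts in W20 IF, on 15, 13, 7 and 23 counts in W20 AL and on 46, 51, 61 and 68 counts in W10. The W10 libraries were all above the old ones, by at least 1.97-fold. W20 IF averaged 0.524 ± 0.0848 CPM (SD, n = 3), W20 AL 0.590 ± 0.259 CPM and W10 2.19 ± 0.396 CPM (SD, n = 4 each). By edgeR the log2 fold change was -2.06 for W20 IF over W10 (standard error 0.31) and -1.88 for W20 AL over W10 (standard error 0.28). For W20 IF over W20 AL edgeR gave -0.18 (standard error 0.35).

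**Figure D3:**
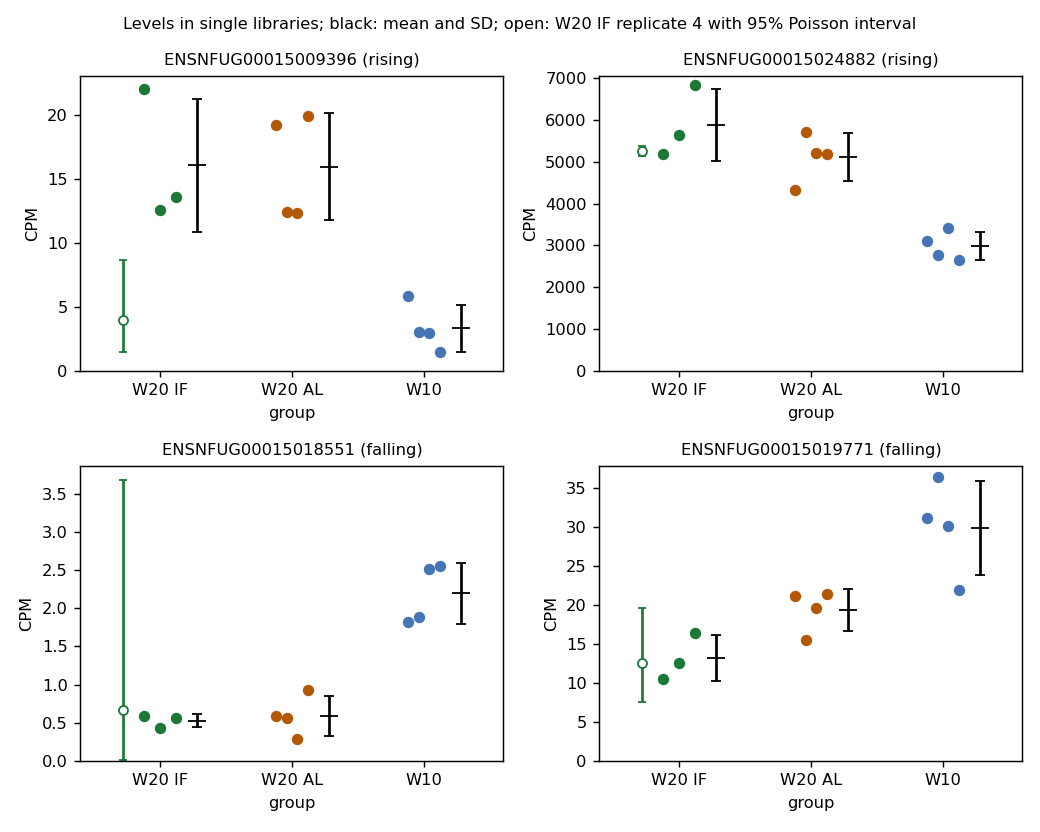
CPM of 2 rising and 2 falling genes in each library of W20 IF, W20 AL and W10, on linear axes from 0, with the mean and SD in black beside the points. The open symbol is W20 IF replicate 4 with a 95% Poisson interval and is not in the mean. In each panel the filled old libraries lie on 1 side of W10, and the gap is widest, relative to the level, for ENSNFUG00015009396 and ENSNFUG00015018551.

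The quasi-likelihood test of edgeR was fitted to all 18277 genes that passed its filter on low counts, in the 11 libraries of the choice. All 61 members passed this filter. As the choice used the same contrasts, the counts of members show how the conditions relate to the test and support nothing further. For W20 IF over W10, 26 of 38 rising genes had an adjusted p-value under 0.05, against 2.76% of all tested genes that were higher at this limit. For W20 AL over W10 the number was also 26, against 1.79% of all tested genes. Both were met by 21 rising genes, W20 IF alone by 5, W20 AL alone by 5 and neither by 7. With an absolute log2 fold change above 1 as a further limit, 14 rising genes were called higher in W20 IF (all tested genes, 1.66%) and 13 in W20 AL (all tested genes, 0.465%). These had 7 genes in common, and 18 rising genes were called in neither. The share of all genes that met both or neither was not counted, so nothing is read from these joint numbers. Among the 15106 genes of at least 1 CPM, 1.13% were called higher in W20 IF and 0.417% in W20 AL.

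Fewer of the falling genes passed the test. For W20 IF over W10, 8 of 23 had an adjusted p-value under 0.05 by edgeR, against 2.25% of all tested genes that were lower at this limit. For W20 AL over W10 it was 10 of 23, against 1.44% of all tested genes. Both were met by 6 falling genes and neither by 11. With the limit on the fold change, 5 falling genes were called lower in W20 IF (all tested genes, 0.268%) and 5 in W20 AL (all tested genes, 0.465%). These had 3 genes in common, and 16 falling genes were called in neither. For these joint numbers, too, the share of all genes was not counted. Among the 15106 genes of at least 1 CPM, 0.245% were called lower in W20 IF and 0.463% in W20 AL. Between W20 IF and W20 AL, 1 rising gene, lower in W20 IF, and 0 falling genes had an adjusted p-value under 0.05 by edgeR, where 15.2% of all tested genes differed in either direction. The choice had removed larger differences between the diets.

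W20 IF replicate 4 was the single library that had no influence on the choice. As 1 library it allows no test. The 38 rising genes had 0 to 7944 counts in it with a median of 6, and 16 of them had at most 3 counts. The 23 falling genes had 0 to 19 counts with a median of 4, and 11 had at most 3. No count was found for 6 rising and 2 falling genes. With 3 counts as a 1-sided 95% limit, the lack of a count allows a level of up to 1.98 CPM by counting error alone. The intervals given further below for single genes are 2-sided. Of all 15106 genes, 3.01% were without a count and 2898 had at most 3 counts.

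Of the rising genes, 21 of 38 lay above all 4 W10 libraries in W20 IF replicate 4 (55.3%), 6 lay within the range of W10 and 11 lay below it (28.9%). Over all genes, 23.5% lay above W10 and 52.7% below. Of the falling genes, 15 of 23 (65.2%) lay below all W10 libraries, 6 within their range and 2 above (8.70%). The median log2 ratio of this library to W10 over all genes was -0.23. The W10 libraries themselves took part in the choice, which favours genes that were low in them among the rising genes and high in them among the falling ones. A library outside the choice therefore tends to lie on the side of old fish for these genes, and the shares over all genes carry no such tendency, so that nothing is read from the difference between them. Relative to the mean of W10, 24 of 38 rising genes (63.2%) were higher in this library, against 34.2% of all genes, and 19 of 23 falling genes (82.6%) were lower, against 65.8% of all genes.

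The shares depended on the scaling and on the depth. With TMM scaling, 22 rising genes lay above W10 (57.9%, all genes 30.3%) and 12 falling genes lay below (52.2%, all genes 45.7%). With the W10 libraries thinned to the depth of W20 IF replicate 4, 15 rising genes lay above W10 (39.5%, all genes 16.3%) and 9 falling genes below (39.1%, all genes 35.9%). Of the 9 rising genes with a mean of at least 10 CPM, 6 lay above W10 and 1 below. For the same abundance, 19.4% of all genes lay above and 57.5% below.

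**Figure D4:**
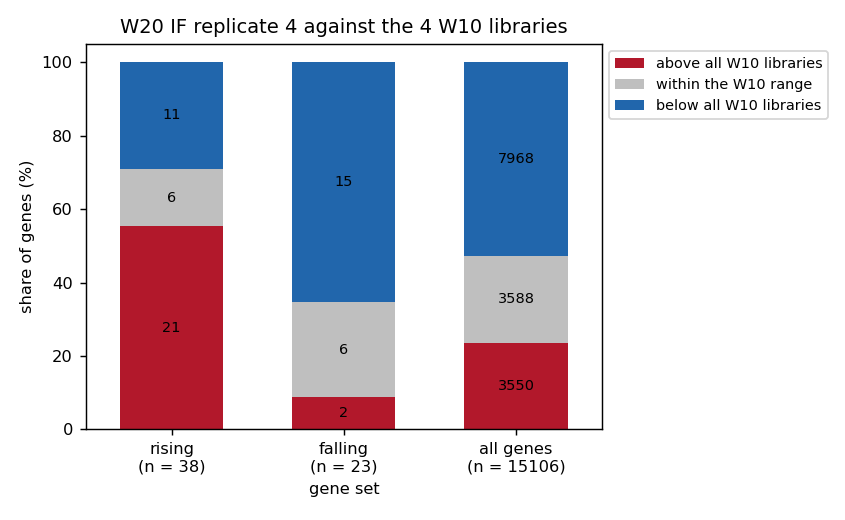
Share of genes (vertical axis, %) for which W20 IF replicate 4 lay above all 4 W10 libraries (red), within their range (grey) or below all of them (blue), for the 38 rising genes, the 23 falling genes and all 15106 genes, with numbers of genes in the bars. Above W10 are 21 rising genes, 2 falling genes and 3550 of all genes.

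The genes described by identifier differed in this library. ENSNFUG00015024882 had 5253 CPM from 7944 counts (95% Poisson interval 5138 to 5370 CPM), above the highest W10 library at 3408 CPM and among the other W20 IF libraries. ENSNFUG00015009396 had 3.97 CPM from 6 counts (1.46 to 8.64 CPM), within the range of W10 and below every other old library. ENSNFUG00015019771 had 12.6 CPM from 19 counts (7.56 to 19.6 CPM), below the lowest W10 library at 21.9 CPM. ENSNFUG00015018551 had 1 count, or 0.661 CPM (0.0167 to 3.68 CPM), and at this depth its level was not distinguishable from W10. The intervals cover counting error only. The sum of the rising genes was 5705 CPM and that of the falling genes 76.7 CPM in this library.

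Each library of the choice was also left out in turn, the genes were chosen anew without it, and the left-out library was then compared with all libraries of the other age. For rising genes, W20 IF replicates 1 to 3 lay above all W10 libraries in 40 of 63, 35 of 42 and 36 of 42 genes chosen without them. W20 AL replicates 1 to 4 did so in 35 of 37, 37 of 39, 39 of 50 and 38 of 45. W10 replicates 1 to 4 lay below all old libraries in 36 of 78, 39 of 51, 36 of 39 and 38 of 44. W10 replicate 1 had the smallest share with 46.2%. Summed over the 11 libraries this was 77.2% of 530 pairs of a gene and a left-out library, in which the same gene can recur. The corresponding share of all genes ran from 7.37% to 33.1% between libraries.

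For falling genes, W20 IF replicates 1 to 3 lay below all W10 libraries in 19 of 28, 24 of 37 and 23 of 26 genes chosen without them, and W20 AL replicates 1 to 4 in 22 of 30, 21 of 24, 24 of 25 and 21 of 23. W10 replicates 1 to 4 lay above all old libraries in 23 of 26, 20 of 24, 21 of 27 and 26 of 52. W10 replicate 4 had the smallest share with 50%. In sum it was 75.8% of 322 such pairs of a gene and a left-out library, where all genes had 7.93% to 33.9%. The choices overlap, as each pair of them shares 9 libraries, so that the 11 shares are not independent and no test was made. The libraries of the other age with which a left-out library was compared had themselves been used to choose the genes, which raises its share above that of all genes, so that these shares are no independent check of the members.

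**Figure D5:**
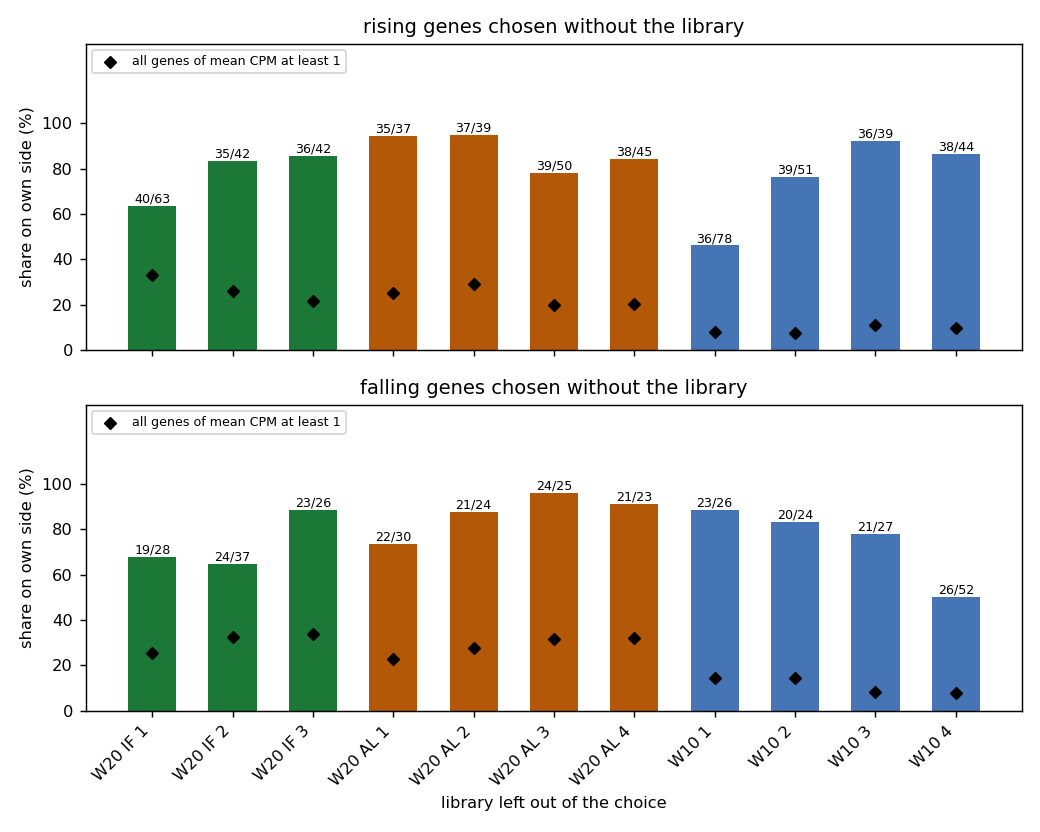
For each library left out of the choice (horizontal axis), the share of rising (top) and falling (bottom) genes chosen without it for which the library lay on its own side of all libraries of the other age (%), with numbers of genes above the bars. Diamonds give the same share over all genes of at least 1 CPM. The lowest bars are those of W10 replicate 1 for rising genes (36/78) and of W10 replicate 4 for falling genes (26/52).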

How the data were processed

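Poly(A) RNA of 12 intestinal samples was sequenced by the authors from directional libraries as paired 75 bp reads. They trimmed with Trimmomatic, mapped with STAR to Nfu_20140520 (Ensembl release 108) and deposited whole-number counts per gene from featureCounts, without normalization or pooling. Program versions, the strand setting of the counting and how multi-mapping reads were handled are not given in the sources used here, so that counts of near-identical, overlapping and antisense genes are uncertain.

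Groups were taken from the labels. CPM was the count over the library total times 1000000. Genes were chosen by the conditions given in the report, without W20 IF replicate 4, and these genes and all lists were chosen with earlier results of these data known. Gene lists and cell type markers prepared for this work could not be applied, as 0 identifiers matched the table of gene names (assembly NfurGRZ-RIMD1), so no sequence is shown either. In each direction the gene with the largest smaller ratio and the gene with the highest mean CPM are named.

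With edgeR 4.0.16 (limma 3.58.1, R 4.3.3), TMM scaling, filterByExpr (minimum count 10, minimum total 15), glmQLFit with robust estimation and glmQLFTest were applied in 1 model with a mean per group over the 11 libraries. Benjamini-Hochberg adjustment covered 18277 genes. Calls required an absolute log2 fold change above 1 besides an adjusted p-value under 0.05. The standard error is the log2 fold change over the root of F. Of 15 pairs of libraries within groups, none was identical, and their chi-square per degree of freedom was at least 9.41, so all counted as separate samples. The scripts were tested on simulated data with changes larger than those of most members, so that test does not cover changes as small as most of theirs. Alternatives were DESeq2 1.42.0, other scalings, filters and limits, all 12 libraries, a replicate block and each library left out. Intervals and limits from 3 counts cover counting error only and leave out the spread between libraries. They treat each read as a separate count, and the reads carry no molecular identifiers to check this. Python 3.11.15 and matplotlib 3.10.9 served for the figures.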

Additional observations from a re-analysis of the deposited data

Results flagged for a closer look

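In groups of 4 libraries, the gap of the highest or lowest library to the next was divided by the range of the group and compared with the 95% limit of Dixon's test. This was done for 27 groups, and chance passes the limit in about 1 in 20. It was passed by the total of W20 IF replicate 4 (1512262 counts). It was also passed by the median log2 ratio to W10 over rising genes in W20 AL replicate 3, which was 0.77 where the other W20 AL libraries had 0.91 to 0.92. The same measure over falling genes in W10 replicate 2 was 0.19, where the other W10 libraries had -0.10 to -0.07. Both medians were taken over genes chosen by their levels in these same libraries. The rate of 1 in 20 therefore does not hold for these medians, and nothing is read from them.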

How the results depend on the processing

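The number of genes depended on the conditions. In place of 38 rising and 23 falling genes, there were 9 and 7 with a 2-fold condition, 17 and 6 with a mean of at least 5 CPM, 59 and 36 without a filter on low values, 92 and 85 with overlap allowed, 19 and 13 with all 12 libraries, and 22 (21 in common) and 6 (6 in common) with edgeR's adjusted p-value in both age contrasts in place of the overlap condition. Without the diet condition 90 rising genes were found. With each library left out, 37 to 78 rising and 23 to 52 falling genes were chosen, of which 33 to 37 and 18 to 23 were in common with those described. For rising genes the number exceeded 1.5 times that given without W10 replicate 1 (78) and W20 IF replicate 1 (63), and for falling genes without W10 replicate 4 (52) and W20 IF replicate 2 (37). TMM scaling gave 42 and 21 genes, with 37 and 20 in common. In W20 IF replicate 4, the share of falling genes below W10 was 39.1% with thinned W10 libraries and 100% for the 1 gene of at least 10 CPM. For each of the 4 named genes, both age contrasts kept their direction in all 16 other fits, which the choice of the genes favours.

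Of all genes tested, W20 AL and W10 had 170 called differences, W20 IF and W10 had 353, and the diets had 611. With the adjusted p-value alone the numbers were 591, 916 and 2769, and DESeq2 called 306 for W20 AL against W10. With each library left out they were 64 to 284, 227 to 349 and 430 to 651. W20 AL against W10 moved by over 1.5 times without W10 replicates 1 (284), 2 (71), 3 (64) or 4 (112), or W20 AL replicates 2 (65), 3 (93) or 4 (63.5% of the number given), and W20 IF against W10 without W10 replicate 2 (227). The cause was not tested. Of the alternatives tried for all these results, 70 stayed within 1.5 times the value given and 31 did not.

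Same-numbered libraries did not deviate together, with correlations of -0.146 to 0.0975 over 10 pairs and 0 over 0.1. Of 11 libraries, 2 were closest to their own number. Weak correlations cannot exclude that the numbers pair the fish, and the labels name no pairs, so the main model used none. A replicate block gave 124, 330 and 516 called genes.

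Depth limits low genes, above all in W20 IF replicate 4, and 3 to 4 libraries per group leave small differences undetected.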
